A study of Homo sapiens with 4 samples.

Results

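Among the transcripts listed as bound by YTHDF1 in interferon-γ (IFN-γ) treated gastric cancer cells, 234 were long non-coding RNA (lncRNA) genes with a proper gene symbol. They carried 709 of the 26819 listed windows, a share of 2.64% (Wilson 95% interval 2.46% to 2.84%, counting error only). Members were taken by annotation alone: every listed window whose gene has the biotype lncRNA and a symbol without a dot. Symbols with a dot are clone names, and those genes held another 711 windows. By their symbols the members fell into 4 classes. Intergenic lncRNAs with LINC symbols had 152 windows in 44 genes. Antisense-type genes, whose symbols carry -AS, -DT (divergent transcript), -OT (overlapping transcript) or -IT (intronic transcript), had 342 windows in 120 genes. Host genes of small RNAs, SNHG for small nucleolar RNAs (snoRNAs) and MIR...HG for microRNAs, had 62 windows in 25 genes. The remaining symbols, such as TUG1, NORAD, CYTOR and HCP5, had 153 windows in 45 genes.

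The windows came from RNA immunoprecipitation sequencing (RIP-seq) in SNU638, an established human gastric cancer cell line. All 4 libraries were of cells that overexpressed YTHDF1, were kept without serum for 24 h and then received IFN-γ at 10 ng/ml for 24 h: 2 were IP-YTHDF1, the RNA pulled down with the protein, and 2 were Input, the RNA before pull-down. Per the study's methods the pull-down used an antibody against FLAG, so the tagged, overexpressed protein was captured. No untreated library and none without overexpression belongs to the series, so the values describe what was listed under IFN-γ and no change caused by it. The authors' deposited table gives each 50 bp window a signal value with its p-value and q-value, for IP-YTHDF1 over Input, with no value per library. Depth and the spread between replicates are therefore unknown, no difference below has a test, and fewer copies of a transcript cannot be told apart from weaker binding. The table does not say what scale the signal value has, so values and their differences are compared within the table only, with no unit.

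LncRNAs are transcripts without a long conserved reading frame. Some stay in the nucleus, as MALAT1 does in nuclear speckles, and others, such as NORAD, act in the cytoplasm. YTHDF1 is a mainly cytoplasmic reader of N6-methyladenosine (m6A), a base mark that is also laid on lncRNAs, most often within the motif DRACH (A, G or T, then A or G, then A and C, then A, C or T). Antisense lncRNAs run over or away from a neighbouring gene on the opposite strand, divergent transcripts start from the promoter of a coding gene, and host transcripts carry snoRNAs or microRNAs that are cut out of them.

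The label was set against the RefSeq annotation of GRCh38.p14. Of the 234 genes, 217 matched a RefSeq symbol, another 13 matched a synonym, and 4 (MUC20-OT1, ABHD15-AS1, ZFHX2-AS1 and CHMP1B-AS1) matched none. RefSeq gave 221 of the 230 matched genes as lncRNA. It gave 6 as transcribed pseudogenes (EBLN3P, DUXAP8, OGFRP1, BMS1P4-AGAP5, GUSBP11 and FAM153CP), TUG1 and ARMCX5-GPRASP2 as protein-coding, and RMRP as the RNA of RNase MRP. TUG1 and RMRP thus have another label in the newer annotation. The listed lncRNA genes were a small part of those annotated: 3.73% of the 5918 RefSeq lncRNA genes with a symbol other than a LOC number had a listed window, against 31.8% of the 20056 RefSeq protein-coding genes.

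Sequences could be read for the 32 member windows that lay wholly within a RefSeq promoter entry, which runs from 250 bases before to 50 bases after a gene's start. The following stretches are shown because they include 2 of the 10 members with the strongest windows (LINC00863 and TIMM23B-AGAP6), the richest in DRACH (TMEM44-AS1), a member of the antigen presentation locus (PSMB8-AS1) and windows at starts shared with a neighbour. LINC00863 lies at chr10:87342636-87342735 (plus strand), TIMM23B-AGAP6 at chr10:49942107-49942156 (plus), NOP14-AS1 at chr4:2935483-2935582 (plus), LBX2-AS1 at chr2:74503296-74503345 (plus), TMEM44-AS1 at chr3:194584155-194584254 (plus), PSMB8-AS1 at chr6:32844129-32844228 (plus) and RAB11B-AS1 at chr19:8390224-8390373 (minus), all in GRCh38. Each is written 5′ to 3′ on the strand of the lncRNA, with matches to DRACH in capitals.
LINC00863: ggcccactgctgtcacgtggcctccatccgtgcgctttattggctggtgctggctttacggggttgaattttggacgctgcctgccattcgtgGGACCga
TIMM23B-AGAP6: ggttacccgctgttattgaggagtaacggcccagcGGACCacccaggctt
NOP14-AS1: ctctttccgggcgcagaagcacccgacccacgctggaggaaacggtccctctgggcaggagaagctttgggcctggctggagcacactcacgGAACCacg
LBX2-AS1: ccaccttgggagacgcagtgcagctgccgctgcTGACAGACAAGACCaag
TMEM44-AS1: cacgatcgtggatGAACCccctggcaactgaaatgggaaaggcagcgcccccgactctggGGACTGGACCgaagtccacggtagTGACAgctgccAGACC
PSMB8-AS1: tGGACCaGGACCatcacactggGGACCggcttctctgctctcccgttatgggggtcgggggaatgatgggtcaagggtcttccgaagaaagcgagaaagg
RAB11B-AS1: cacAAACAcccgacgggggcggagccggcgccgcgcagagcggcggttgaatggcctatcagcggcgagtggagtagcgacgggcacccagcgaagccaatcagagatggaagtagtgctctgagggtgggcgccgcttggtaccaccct

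The LINC00863 stretch held both of its windows (signal values 3.85 and 2.65) and has 1 DRACH match at its 3′ end. TMEM44-AS1 had 5 matches under signal values of 2.36 and 2.07. PSMB8-AS1 had 3, all of them in the first part of the stretch and all of the GGAC type, under values of 2.12 and 2.35. LBX2-AS1 had 3 matches in 50 bases, next to or over each other (2.57). RAB11B-AS1, read over 3 adjoining windows (2.41, 2.27 and 2.11), had 1 match in 150 bases. The stretches of LBX2-AS1, PSMB8-AS1 and RAB11B-AS1 lie in the promoter entries of LBX2, PSMB8 and RAB11B on the opposite strand, that of TIMM23B-AGAP6 in the entry of PARG, and those of NOP14-AS1 and TMEM44-AS1 in their own entries.

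Over all 32 such member windows, searched on the strand of the lncRNA, 12 held DRACH (37.5%) and 9 held GGAC (28.1%). GGAC overlaps DRACH wherever the next base is A, C or T. Among all 947 listed windows within a promoter entry the shares were 39.6% and 23.7%, and in the first 50 transcribed bases of 35116 entries 49.6% and 18.9%. DRACH was thus no more frequent in the member windows than in either set, while GGAC was more frequent, though in only 9 windows. The first transcribed bases are read after a gene's start on its own strand. Most member windows had their centre before a start, many of them on the strand opposite to the entry's gene, so that set differs in position and strand. The median GC content was 63.0% in the member windows and 70.0% in all listed promoter windows. The 32 windows are those near a gene start and do not stand for all 709.

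Signal values of the members ran from 0.88 (NORAD) to 5.03 (LINC01877), with a median of 1.99 (95% order-statistic interval 1.97 to 2.03) and quartiles of 1.77 and 2.35. All listed windows had a median of 1.84 with quartiles of 1.54 and 2.19, protein-coding windows a median of 1.83. A value of 2 or more was listed for 348 member windows (49.1%), where 37.2% of all listed windows reached it. The deposited q-value was at most 0.001 for 308 member windows (43.4%), against 43.7% of all listed windows. Every listed window has a q-value of at most 0.05. From its ratio to the p-value, the q-value is read as corrected within each gene and not over the whole table. It therefore depends on how many windows were tested in a gene, and the shares of classes are not on the same scale. Member windows thus stood higher in signal value but not in the share with a small q-value. The shift was not particular to named lncRNAs: clone-named lncRNA windows had a median of 2.02 and pseudogene windows 2.12. Since windows of 1 gene depend on each other, the interval is too narrow.

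**Figure D1:**
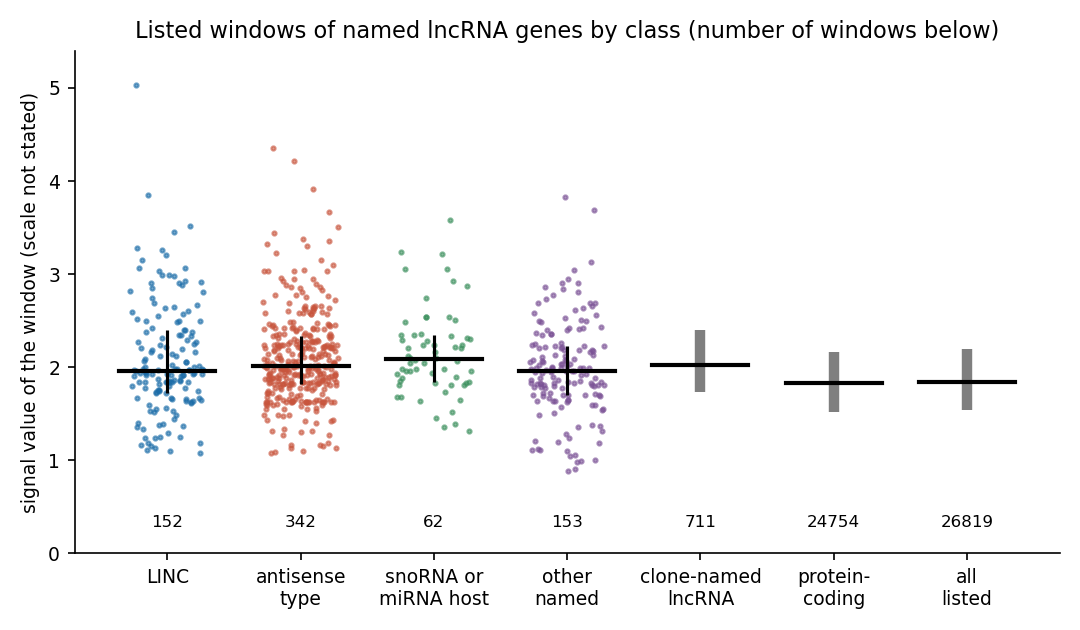
Signal value (vertical axis, scale not stated) of each member window by class, 1 point per window. Horizontal bars are medians and vertical bars run from the 25th to the 75th percentile, with the 3 reference classes on the right drawn without points. The 4 member classes have medians from 1.96 to 2.09, above the 1.83 of protein-coding windows, and the class ranges overlap widely.

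The 4 classes differed little in their medians. Host genes had 2.09, antisense-type genes 2.01, and LINC genes and the remaining symbols 1.96 each. SNHG windows had a median of 2.10 and MIR...HG windows 2.07. The LINC genes held the highest strongest window per gene, with a median of 2.52 against 2.28 in antisense-type genes, 2.10 in host genes and 2.36 in the remaining ones. Over all members this median was 2.31, near the 2.24 over all listed genes.

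Members held 2.64% of all listed windows. None was among the 10 strongest windows, 5 were among the strongest 100 (5.0%) and 45 among the strongest 1000 (4.5%). In the strongest 10% of the table, with signal values of 2.58 and above, members held 108 of 2694 windows (4.01%). In the weakest 10%, at 1.23 and below, they held 31 of 2740 (1.13%).

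Named lncRNA genes had fewer listed windows each than coding genes. The median was 2 windows per member gene and 3 over all listed genes. A single window was listed for 102 members (43.6%), against 29.0% of protein-coding genes. The number of windows tested in a gene, computed from the ratio of q-value to p-value, had a median of 26 in 204 members and 32 in protein-coding genes. No gene in the table has more than 9 windows, and 9 is read as 9 or more. It was reached by 23 members (9.83%) and by 12.8% of protein-coding genes. Joined end to end, the member windows made 484 regions, of which 354 (73.1%) were a single window, close to the 71.9% of protein-coding genes.

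**Figure D2:**
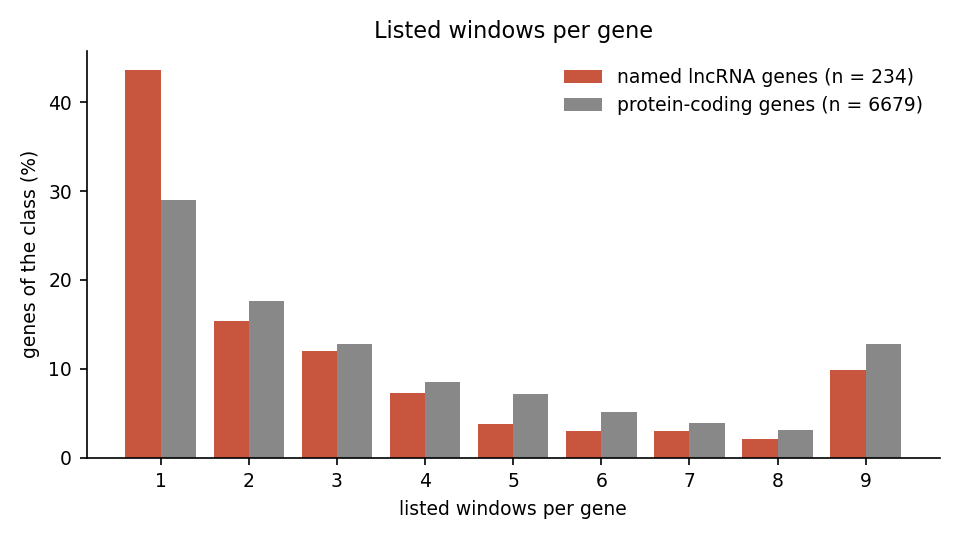
Share of genes (vertical axis, percent of the class) by the number of listed windows per gene (horizontal axis), for named lncRNA genes and protein-coding genes. Single-window genes make up 43.6% of the lncRNA genes and 29.0% of the coding genes, and both classes rise again at 9, the most listed for any gene.

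The 10 members with the strongest windows were LINC01877, MAP3K14-AS1, ZKSCAN7-AS1, CCDC144NL-AS1, LINC00863, TIMM23B-AGAP6, PTCSC2, SNHG10, LINC01492 and AFAP1-AS1, with strongest values from 5.03 down to 3.51. LINC01877 had a single window at chr2:199659719-199659768 with a signal value of 5.03 and a deposited q-value of 4.63e-09. It was also the only window tested in that gene, and it lies just past the 3′ end of the RefSeq interval. MAP3K14-AS1 likewise had 1 window, at chr17:45261817-45261866 (4.36), inside its RefSeq interval and over SPATA32 on the opposite strand.

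ZKSCAN7-AS1, antisense to a zinc finger gene, had 9 windows within about 2 kb of chromosome 3. Their signal values were 4.22, 3.67, 2.43, 2.33, 2.22, 2.10, 1.97, 1.81 and 1.81. The 2 highest were adjacent. CCDC144NL-AS1 had 5 windows, at 3.91, 2.24, 1.98, 1.83 and 1.82, and here 1 window was above 3. AFAP1-AS1, an antisense RNA described in several carcinomas, differed from both. Its 9 windows joined to 1 block of 450 bp at chr4:7772241-7772690, with values of 3.51, 2.95, 2.44, 2.69, 2.36, 2.64, 2.62, 2.70 and 1.59 from 5′ to 3′. Of these, 8 were above 2. The list stops at 9 windows per gene, and 450 bp is also the longest region over all listed windows. How far the block extends is therefore not known.

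Among LINC genes, LINC01492 followed with 3.52, 2.19 and 1.64 in 3 adjoining windows. LINC01588 had values of 3.45, 2.64 and 2.25. LINC01749 had 6 windows (3.28, 2.99, 2.85, 2.52, 2.38 and 2.31), none adjoining another, and all of them above the median of the table. NUTM2B-AS1 had 1 window at 3.44, which closed the 5 strongest antisense-type genes.

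SNHG10, a snoRNA host, had 4 adjoining windows with 3.58, 3.22, 2.21 and 2.16, and only 7 windows were tested in it. MIR22HG, the host of miR-22, had 3 adjoining windows (3.24, 2.54 and 2.24). MIRLET7BHG, which carries let-7 family microRNAs, had 6, at 3.05, 2.93, 2.87, 2.36, 1.83 and 1.83. SNHG20 had 2 (3.05 and 2.51) and MIR924HG had 2 (2.74 and 2.30). The stronger MIR924HG window overlapped a window of the pseudogene RPL7AP66 on the same strand, which had a higher value. It therefore cannot be assigned to MIR924HG alone. These 5 hosts were taken for their strongest windows, all of which were above 2.58, the lower bound of the strongest 10% of the table. Over all 25 host genes the strongest window had a median of 2.10.

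Among the remaining symbols, TIMM23B-AGAP6, a read-through of neighbouring genes, had 1 window at 3.83. PTCSC2, a thyroid cancer susceptibility lncRNA, had 1 at 3.69, with 3 windows tested. NBR2, which starts beside BRCA1, had 6, at 3.13, 2.69, 2.36, 2.25, 1.99 and 1.95. CYTOR, a lncRNA raised in many tumours, had 9 from 1.64 to 3.04. On the same strand, 6 of the CYTOR windows, up to 2.24, overlapped windows of the clone-named lncRNA AC133644.3 (up to 2.34). C5orf56 followed at 2.90 and tied with SPATA41. The handling of reads that match several places is not given in the sources used here, and TIMM23B-AGAP6, LINC00863, NUTM2B-AS1 and the related pair CYTOR and MIR4435-2HG belong to duplicated stretches of the genome, so their windows are uncertain.

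**Figure D3:**
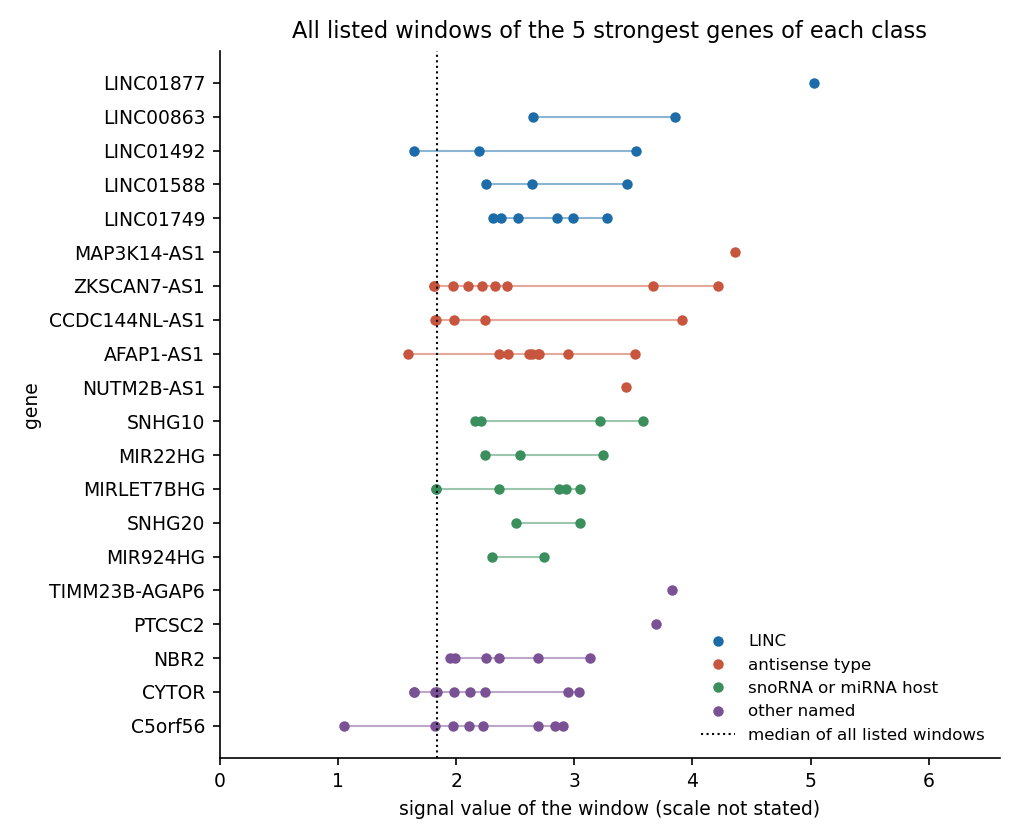
Signal value (horizontal axis, scale not stated) of every listed window of the 5 strongest genes of each class, 1 row per gene and 1 point per window, with the median of all listed windows as a dotted line. Single-window genes such as LINC01877 (5.03) and MAP3K14-AS1 (4.36) stand beside genes such as ZKSCAN7-AS1, whose windows spread from 1.81 to 4.22.

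The 23 members at the limit of 9 windows had strongest values from 1.97 (LINC00511) to 4.22 (ZKSCAN7-AS1), with a median of 2.62. They included 12 antisense-type genes (ZKSCAN7-AS1, AFAP1-AS1, NOP14-AS1, RNF213-AS1, TTN-AS1, EIF3J-DT, ADIRF-AS1, ABHD15-AS1, HLA-F-AS1, SLC5A4-AS1, FGD5-AS1 and PAX8-AS1). LINC00667, LINC01278 and LINC00511, the hosts SNHG29 and MIR4435-2HG, and CYTOR, ZNF8-ERVK3-1, TUG1, HCP5, OLMALINC and NORAD made up the rest. TUG1, which acts with chromatin regulators, had values of 2.42, 2.66, 2.51, 2.42, 2.21, 1.84, 1.81, 1.49 and 1.21 from 5′ to 3′. All 9 lay near the 5′ end of the gene, and values further along are not known from a list that stops at 9. NORAD, a cytoplasmic lncRNA that binds PUMILIO proteins, had 9 windows from 0.88 to 2.08. NORAD carried the lowest value of all members, yet its strongest window had a deposited q-value of 0.

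The antisense-type genes allow a look at both strands of a locus. Of the 120, 68 (56.7%) had a partner, the gene named in their symbol, that was also listed, beside 31.8% of all RefSeq protein-coding genes. By suffix these were 57 of 104 -AS genes, 10 of 13 -DT genes, the single -IT gene and none of the 2 -OT genes. In 67 pairs the partner lay on the opposite strand, and the exception was GABPB1-IT1. The part of expression level in this shared listing was not tested.

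Within the 68 pairs neither side was higher throughout. The strongest listed window was higher in the antisense-type gene in 37 pairs and in the partner in 31, with medians of 2.26 and 2.34 and a median difference of 0.04. The difference ran from 2.17 in favour of MAP3K14-AS1 (4.36 against 2.19 in MAP3K14, the NF-κB inducing kinase) to the other extreme at DDIT4-AS1 (1.15 against 2.85 in DDIT4, an inhibitor of mTOR signalling). CCDC144NL-AS1 stood at 3.91 against 1.92. NIPBL-DT had 2.45 against 3.89 in NIPBL, which loads cohesin. GARS-DT had 3.04 against 2.27 in GARS, the glycyl-tRNA synthetase. The nearest windows of a pair were 1788 bp apart at the median. They lay within 1000 bp in 27 pairs and touched or overlapped in 12. Leaving out genes at the most windows listed per gene kept 46 of the 68 pairs. In the other pairs a stronger or nearer window may be unlisted, so the differences and distances hold for listed windows only. The split of 37 and 31 was not computed without those pairs.

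**Figure D4:**
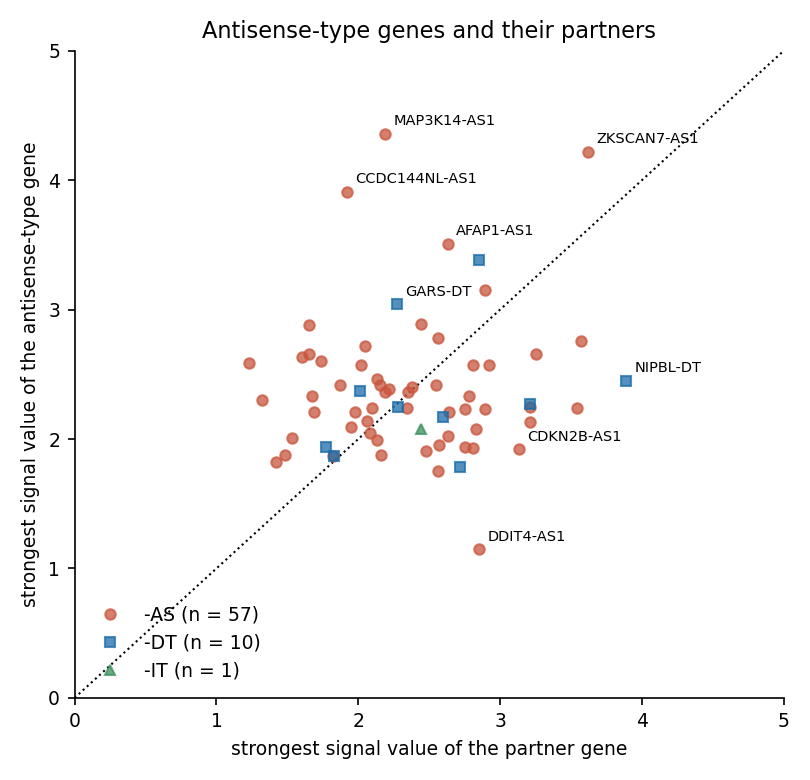
Strongest listed signal value of an antisense-type gene (vertical axis) against that of its partner gene (horizontal axis), for the 68 pairs in which both have a listed window, with equal values on the dotted line. Of the points, 37 lie above the line and 31 below.

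Windows that overlap by at least 1 bp on opposite strands were rare but more frequent among members: 22 of 709 (3.10%, in 17 genes), beside 0.869% of all listed windows and 0.63% of protein-coding windows. Antisense-type genes held 19 of the 22. Taking the overlapping windows only, the member was higher in 13 of 17 pairs with a coding gene and lower in 4, with a median difference of 0.39. The pairs are not all separate loci. The CHMP1B-AS1 window counts against both CHMP1B and GNAL, and a ZNF32 window against both ZNF32-AS1 and ZNF32-AS3. In all of these the member was higher. How far reads of 1 strand were counted for the other was not tested.

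The 5 antisense-type genes with the strongest such windows were CCDC144NL-AS1 (3.91 against 1.92 in CCDC144NL), AFAP1-AS1, ZNF32-AS1 (2.78 against 1.08 in ZNF32), BOK-AS1 (2.76 against 2.15 in BOK, a BCL2 family member) and IL21R-AS1 (2.23 against 2.75 in IL21R, the interleukin 21 receptor). Outside the overlap BOK reached 3.57 and ZNF32 2.56. The ZNF32-AS1 window also overlapped a window of ZNF32-AS3 on the same strand, which had 1.75. At AFAP1-AS1, 6 of the 9 windows lay over windows of AFAP1, an actin filament associated protein, whose 4 windows had 1.98, 1.98, 2.63 and 2.14. All 4 AFAP1 windows were below the strongest AFAP1-AS1 window. The order was the other way at CDKN2B-AS1, the lncRNA also called ANRIL, with a window of 1.92 against 3.13 in the cell cycle inhibitor CDKN2B.

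On the same strand, 103 member windows (14.5%, in 40 genes) overlapped a listed window of another gene, 64 of them one of a coding gene. For protein-coding windows the share was 10.0%. It was highest in the remaining symbols (43 of 153, 28.1%) and lowest in host genes (4 of 62, 6.45%). In the 23 pairs with a coding gene the absolute difference had a median of 0.13, and the member was higher in 12 and lower in 10. The difference ran from -1.21 (NRAD1, 2.69 against 3.90 in AL512506.3) to 1.10 (ABHD15-AS1, 2.59 against 1.49 in ANKRD13B). Overlapping windows count the same stretch of RNA for both genes. TIMM23B-AGAP6 (3.83) and TIMM23B (3.89), LINC01278 (2.69) and SPIN4 (2.70), LINC01118 (2.82) and SOCS5 (2.95), LINC00339 (2.38) and CDC42 (2.38), and SNHG20 (3.05) and SEC14L1 (2.94) are examples with close values, and none of these can be assigned to the lncRNA alone.

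Of the lncRNAs tied to interferon or to the major histocompatibility region, 7 of 22 (31.8%) had windows, 53 in all, and their strongest values had a median of 2.58. Over all RefSeq lncRNA genes the share with a window was 3.73%. Of the genes with windows, PSMB8-AS1, HCP5, HCG11, HCG18 and HLA-F-AS1 lie on chromosome 6, in or near that region. The share is therefore not one of interferon lncRNAs alone. IRF1-AS1, which the table lists as C5orf56 and RefSeq as CARINH, lies beside IRF1, a transcription factor that IFN-γ induces. It had 8 windows on the plus strand of chromosome 5. The first had 1.97. A block of 3 at chr5:132470087-132470236 followed with 2.69, 2.84 and 2.90, then a block of 3 at chr5:132470287-132470436 with 1.82, 2.11 and 2.23. The last, at chr5:132486987-132487036, had 1.05 and a deposited q-value of 0.01637. This weakest window lay opposite 2 IRF1 windows with values of 1.85 and 0.76, the stronger of which it overlapped by 23 bp. The strongest IRF1 window, at chr5:132487060-132487109 with 2.37, lay just outside the overlap. The weakest C5orf56 window lies outside the RefSeq interval of CARINH. All 8 windows overlapped windows listed for AC116366.3, a gene model on the same strand, so they cannot be assigned to C5orf56 alone.

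PSMB8-AS1 had 6 windows, at 2.12, 2.35, 2.45, 2.92, 2.85 and 1.98 from 5′ to 3′. It starts beside PSMB8, an immunoproteasome subunit with no listed window, and all 6 windows overlapped windows of PSMB9, another such subunit on the same strand, whose strongest overlapping value was 2.82. HCP5, from the HLA class I region, had 9 windows from 0.99 to 2.50, and the weakest overlapped a window of MICA, a ligand of natural killer cells. HLA-F-AS1 had 9 windows up to 2.58, HCG11 5 up to 2.61, HCG18 7 up to 2.13 and MORRBID, listed as MIR4435-2HG, 9 up to 2.31. On the same strand, 3 HLA-F-AS1 windows overlapped windows of the pseudogene MICE, and 4 HCG18 windows overlapped windows of HCG17, another member. RNF213-AS1, antisense to an interferon-induced ubiquitin ligase but not on this list, had 9 windows from 1.10 to 3.15. RNF213 itself had 9 windows up to 2.89, and the nearest windows of the pair were 13712 bp apart. The rest of the list had no window: HCG27, BISPR, NRIR, LUCAT1, MIR155HG, NKILA, MIR3142HG, PCED1B-AS1, CD27-AS1, USP30-AS1, IFNG-AS1, LINC00158, LINC01550, THRIL and PACERR.

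**Figure D5:**
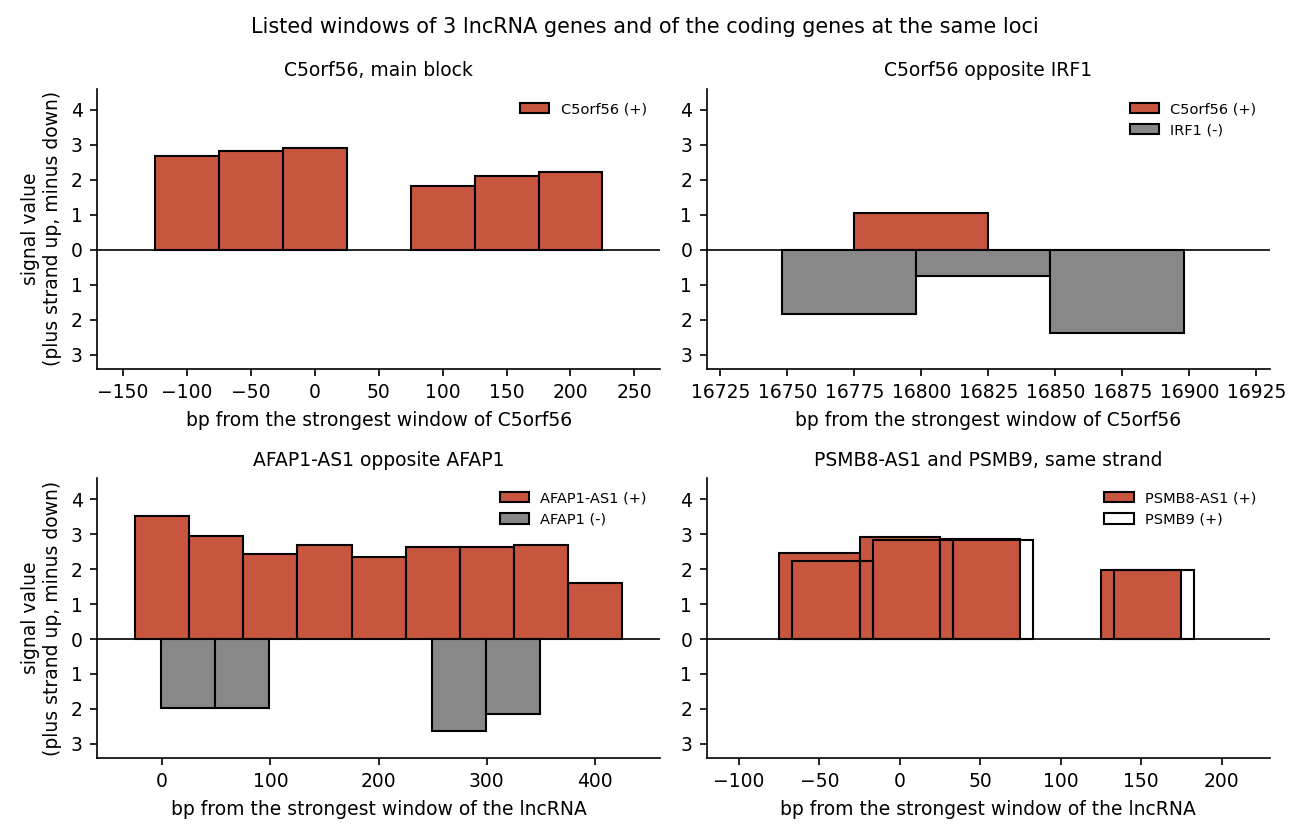
Signal value (vertical axis, plus strand upward and minus strand downward) of listed 50 bp windows by distance in bp from the strongest window of the lncRNA, at the C5orf56, AFAP1-AS1 and PSMB8-AS1 loci. IRF1 and AFAP1 windows lie opposite those of the lncRNA, PSMB9 windows (open bars) lie over those of PSMB8-AS1, and windows of AC116366.3 at the C5orf56 locus are not drawn.

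Of 34 genes on the list of snoRNA hosts, 16 (47.1%) had windows, 40 in all, where 3.73% of all RefSeq lncRNA genes had one. Their strongest values ran from 1.45 in SNHG12 to 3.58 in SNHG10, with a median of 2.05, below the 2.31 over all members. The count includes CYTOR (9 windows) and EPB41L4A-AS1 (1 window), which have no SNHG symbol. Whether CYTOR hosts a snoRNA was not checked. SNHG29 had 9 windows (up to 2.54) and SNHG16 had 3 (up to 2.24), while SNHG1 (1.73), SNHG3 (1.93), SNHG5 (1.85), SNHG6 (2.48), SNHG7 (2.04) and SNHG8 (1.64) had 1 each. The SNHG3 window overlapped a same-strand window of the coding gene RCC1 (1.63). GAS5 and ZFAS1, abundant hosts of this group, had no listed window. Of 87 microRNA hosts, 11 (12.6%, beside the same 3.73%) had windows, 32 in all, with a median strongest value of 2.28. MIR31HG had 4 (up to 2.33), and MIR34AHG, the host of the p53 target miR-34a, had 1 at 2.10. None of the 709 member windows overlapped a microRNA hairpin of the RefSeq table. The nearest was the SNHG20 window at chr17:77089367-77089416, which ends at the base before the hairpin of MIR6516. This window and the other SNHG20 window overlapped a listed window of the small RNA gene SCARNA16 on the same strand (2.60), by 41 and 9 bp.

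Of 16 lncRNAs of nuclear bodies and chromatin, 5 (31.2%) had windows, beside 3.73% of all RefSeq lncRNA genes. MALAT1 had 2 (2.41 and 1.86), TUG1 the 9 above, OIP5-AS1, also called Cyrano, 1 at 3.30, FTX 1 at 2.37 and JPX 1 at 2.07. NEAT1, the scaffold of paraspeckles, and KCNQ1OT1 had none. The OIP5-AS1 window overlapped one of a same-strand gene model (2.73). Of 14 lncRNAs of the p53 and DNA damage response, 6 (42.9%, beside the same 3.73%) had windows: MIR22HG (3.24), MIR34AHG (2.10), NORAD (2.08), PINCR (1.99), CDKN2B-AS1 (1.92) and PURPL (1.91). Apart from MIR22HG these lay at or below 2.10.

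Of 26 lncRNAs described in gastric or other cancers, 7 (26.9%) had windows, beside 3.73% of all RefSeq lncRNA genes, with a median strongest value of 2.81. AFAP1-AS1 (3.51) and CYTOR (3.04) led, followed by PVT1, a neighbour of MYC, with 4 windows at 2.86, 2.43, 2.35 and 1.83. LINC00963 had up to 2.81, SOX2-OT up to 2.33, LINC00665 1 window at 1.98 and LINC00511 up to 1.97. H19, UCA1 and CCAT1 had no listed window. Of 11 imprinted lncRNAs, H19 and MEG3 among them, none had a window, and at a share of 3.73% a list of this size would hold few or none. The lists hold well-studied genes, and the part of their expression level in these shares was not tested. They share members, and being unlisted says nothing of expression in SNU638, which the table does not hold.

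Along the gene, members resembled coding genes. Of 695 windows in genes matched to RefSeq, 575 (82.7%) lay inside the RefSeq interval of the same gene, against 97.3% for protein-coding windows, so gene models of the members differ more between annotations. Of the inside windows, 25.6% lay within 500 bp of the 5′ end and 2.26% within 500 bp of the 3′ end, against 24.3% and 2.06% in coding genes. In LINC genes 37.0% lay near the 5′ end, in antisense-type genes 24.6%, and in host genes 12.0% (6 of 50 windows). Among genes below 9 windows these shares were 31.3%, 32.6% and 14.6%, so LINC genes no longer stood above antisense-type genes. Most member windows (425, 59.9%) lay over no coding gene of RefSeq. Another 178 (25.1%) lay over one on the opposite strand and 90 (12.7%) over one on the same strand, with medians of 1.98, 1.98 and 2.03. These groups follow RefSeq, so the first also holds windows over gene models that the table itself calls protein-coding, such as those of C5orf56 over AC116366.3.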

How the data were processed

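SNU638 cells gave 2 IP-YTHDF1 and 2 Input libraries for RIP-seq. The submitters' processing notes name STAR 2.7.3a and GRCh38. The paper describes its protein-coding peaks as a union over replicates, so a listed window may rest on 1 of them. The peak caller and the treatment of reads that match several places are not given in the sources used here. The authors deposited 1 table of annotated 50 bp windows, in which the signal value and the rank are read as a score of unstated scale, and the p-value and q-value are the authors' deposited ones. Values of single libraries were not part of the table, so depth is unknown and IP-YTHDF1 was not tested against Input here.

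Of 26820 rows, 1 exact repeat was dropped, and starts were turned into positions counted from 1. Windows were joined, overlapped by strand (at least 1 bp) and matched to RefSeq genes (GRCh38.p14) by symbol or synonym. The partner of an antisense-type gene is the gene in its symbol. The number of tested windows was computed from the ratio of q-value to p-value within a gene. It was checked in 2181 single-window genes with fewer than 50 tested windows, where 97.1% gave a whole number within 0.1. Promoter and hairpin sequences are RefSeq's, and no genome sequence was used.

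Named genes were the members of functional lists, the 10 strongest members, the 5 strongest of each class, genes with 9 windows, the 5 strongest antisense-type genes overlapping a window on the opposite strand, and IRF1-AS1. Other genes were named as examples of a count after their values were seen. XIST and TSIX were left out. The members and lists were chosen with earlier results of these data known. Alternatives were a q-value of at most 0.001, joined windows, leaving out genes with 9 windows or windows shared on the same strand, a signal value of at least 2, the strongest window per gene and an overlap of at least 25 bp. Scripts were tested on simulated data. The tools were matplotlib 3.10.9, SciPy 1.17.1, NumPy 2.4.6 and pandas 2.3.3 under Python 3.11.15.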

Additional observations from a re-analysis of the deposited data

How the results depend on the processing

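With q-values of at most 0.001 in the deposited table, 308 windows in 126 named lncRNA genes remained, their median signal value was 2.34 (all listed windows 2.22), 24 antisense-type genes had a listed partner in place of 68, and 4 of their windows overlapped one on the opposite strand in place of 19. With signal values of at least 2 these were 348 windows, a share of 3.49% in place of 2.64%, 40 partners and 5 overlaps. Without genes at 9 windows 9 overlaps were left, AFAP1-AS1 and ABHD15-AS1 being among the genes left out. The strongest window of each gene had a median of 2.31 (all listed genes 2.24). The other 16 values moved less: joined windows gave 484 regions with a median of 2.03, leaving out windows shared on the same strand gave 606 windows with a median of 1.98, and an overlap of at least 25 bp left 14. The median of the members was above that of all listed windows in the 6 alternatives in which it was compared, but with signal values of at least 2, a limit on the compared value itself, the medians were 2.35 and 2.33, against 1.99 and 1.84 over all values. Both stricter limits hold fewer windows by construction. No paired analysis was possible because each window has 1 value and none per library. How many reads lie behind each window is unknown, so how far depth limits the listing of rare lncRNAs was not tested.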
